A study of Mus musculus with 15 samples.

Results

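Among 15 mouse pups studied, the livers of 7 had been labelled hypoglycaemic knockout (KO), and these 7 were split here by the blood glucose given for each pup. Blood glucose was 9, 16, 12 and 14 mg/dl in 4 KO pups (replicates 1, 2, 3 and 5), against 33, 26 and 29 mg/dl in the other 3 KO pups (replicates 4, 6 and 7). The split lies at 20 mg/dl, between 16 mg/dl, the highest value on the lower side, and 26 mg/dl, the lowest on the upper side. The 4 pups below 20 mg/dl were compared with the 3 pups at 20 mg/dl or more across all genes on the array. All 7 were labelled as lacking the microRNA cluster miR-379/miR-410 on the chromosome from the mother, on a C57BL/6J background, and livers were taken on postnatal day 1. The further groups were 3 KO pups whose titles call them normoglycaemic (44 to 56 mg/dl) and 5 wild-type pups of the same strain and age (50 to 72 mg/dl), described as littermates. The study's design text calls the 7 pups severely and the 3 pups mildly hypoglycaemic. Each pup was 1 sample on 1 Agilent single-colour array, and what sets a pup's glucose, such as its feeding or its hours since birth, is not given in the sources used here. The deletion is present in every cell, since it is inherited through the germ line, so differences from wild-type livers cannot be assigned to the liver itself.

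After birth the supply of glucose from the mother ends, and the newborn liver takes over the upkeep of blood glucose. Glucagon, acting through cyclic AMP, and glucocorticoids switch on genes of the fasted liver, among them Ppargc1a, which encodes a coactivator of glucose production, and the enzymes that make glucose from amino acids, lactate and glycerol. The newborn liver is also still a blood-forming organ and holds dividing red cell precursors beside dividing hepatocytes. The miR-379/miR-410 cluster gathers many microRNA genes within the imprinted Dlk1-Dio3 domain and is expressed from the chromosome inherited from the mother, and its non-coding RNA Mirg (microRNA containing gene) is made from the same chromosome.

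The mature microRNAs of the first and last genes of the cluster are shown because their deletion defines the KO label. They lie on the plus strand of chromosome 12, from chr12:109709065-109709085 (miR-379-5p) to chr12:109743764-109743784 (miR-410-3p), in RefSeq on GRCm38.p6, and the capitals mark the seed, bases 2 to 8, with which a microRNA recognises its targets:
miR-379-5p: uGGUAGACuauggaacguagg
miR-379-3p: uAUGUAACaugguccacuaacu
miR-410-5p: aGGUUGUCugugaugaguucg
miR-410-3p: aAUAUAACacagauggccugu
The 4 seeds are all different. The arrays do not measure microRNAs, and the deletion was checked through Mirg, whose 2 probes are shown because the check rests on them. They lie at chr12:110987569-110987628 and chr12:110979653-110979712 of mm9, the build of the array files, and the files give no strand with the position:
Mirg probe 1: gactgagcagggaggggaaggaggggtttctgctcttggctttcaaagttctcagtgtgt
Mirg probe 2: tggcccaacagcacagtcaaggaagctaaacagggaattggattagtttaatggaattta

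All levels below are log2 spot signals centred on the array's 75th percentile, so that 0 is the 75th percentile of the array's probes and a difference of 1 is a doubling. The first Mirg probe read −2.15, 0.66, −1.77 and −2.55 in the pups below 20 mg/dl (replicates 1, 2, 3 and 5), against −3.02, −2.67 and −1.23 in the pups at 20 mg/dl or more (replicates 4, 6 and 7). It read −2.80 to −2.68 in normoglycaemic KO pups and 0.88 to 1.60 in wild-type pups. The library labelled replicate 2 of the KO pups below 20 mg/dl, at 0.66, lay close to the wild-type range and away from the other 9 KO libraries, of which the highest was replicate 7, at −1.23. On the second probe it read −0.16, where the other hypoglycaemic KO libraries read −4.38 to −2.15 and the wild-type libraries 0.33 to 0.97. The Mirg level of this library thus goes against its KO label, and the medians of the main lists and the values of several genes are also given without it. Between these KO groups, Mirg differed by 0.85 with it and by 0.15 without it (2-sided exact permutation tests, p = 0.514 over 35 splits and p = 0.9 over 20), where the smallest p these designs allow is 0.0571 and 0.1. Meg3 and Dlk1, imprinted genes of the same domain outside the deleted cluster, differed by 0.18 (SE 0.15, adjusted p = 0.582) and 0.36 (SE 0.19, adjusted p = 0.354) between these KO groups.

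Some libraries stood apart in other ways. Between 57.9% and 76.2% of probes were well above background on an array, and the levels of any 2 arrays correlated at 0.969 or more. Of the 4 pups below 20 mg/dl, 3 were on slide 1 and 1 (replicate 5) on slide 2, and of the 3 pups at 20 mg/dl or more, 1 (replicate 4) was on slide 1 and 2 on slide 2. Ddx3y, a Y-linked transcript, read 2.32 and 2.31 in replicates 1 and 2 of the pups below 20 mg/dl and −7.90 to −5.15 in the other 5 hypoglycaemic KO pups, and the labels give no sex. Of 3 Y-linked markers, 2 were still well above background in replicate 5 and 1 in replicate 6. Genes of pancreatic acinar cells, the enzyme-making cells of the pancreas, were detected in several libraries. Their mean level over 29 measured markers was −3.46, −1.20, 1.03 and −1.41 in the pups below 20 mg/dl, against −3.79, −3.32 and −3.68 in the pups at 20 mg/dl or more, with 23 to 28 markers and 18 to 23 markers well above background. It was 3.61 in replicate 2 of the normoglycaemic KO pups and 0.88 in replicate 2 of the wild-type pups, where 29 and 28 markers were well above background. Replicate 1, below 20 mg/dl, lay within the range of the pups at 20 mg/dl or more for this list. Of the 3 libraries of highest acinar mean, only replicate 3 of the pups below 20 mg/dl enters the difference between these KO groups. Without the 3, the median differences of the fasting and cell cycle lists, described below, were 0.72 and −0.30. Replicates 2 and 5, at −1.20 and −1.41, stayed in that fit, so acinar RNA was not removed from it. With a Y-linked transcript as a covariate the medians were 0.81 and −0.48, against 0.75 and −0.44 over all 7. Of all 49 lists, 3 changed the sign of their median without the 3 libraries and 4 with the covariate. Try4, a trypsinogen, read −4.50, 0.40, 4.06 and 0.71 in the pups below 20 mg/dl, against −7.72, −3.70 and −6.55 in the pups at 20 mg/dl or more, and the islet markers, from the hormone-making cells of the pancreas, had a median difference of 1.67. The hepatocyte list, by contrast, was well above background for all 21 measured members on every array, and its mean lay between 6.98 and 7.35 in the pups below 20 mg/dl and between 7.15 and 7.19 in the pups at 20 mg/dl or more.

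No gene separated the 2 KO groups at an adjusted p under 0.05 in limma's moderated fit over 27415 genes (0% called), and the smallest adjusted p was 0.0708. Without adjustment, 1990 genes were higher and 2628 lower in the pups below 20 mg/dl at p under 0.05, and 43 genes had an adjusted p under 0.1. All 4 libraries below 20 mg/dl lay above all 3 others for 1974 of the 26986 genes with a value on all 7 arrays (7.31%) and below them for 2398 (8.89%), and these 2 shares are the background against which the counts of members below are read. The count of called genes depended on which libraries were fitted, although the spread is estimated over all 15: it was 409 (117 higher, 292 lower) without wild-type replicate 1, 21 (15 higher, 6 lower) without replicate 7 of the pups at 20 mg/dl or more, and 0 without replicate 2 of the pups below 20 mg/dl. It was 1 without wild-type replicate 2, without normoglycaemic KO replicate 2 or without normoglycaemic KO replicate 3. Within slide 1 (3 against 1 pup) 2 genes were called and within slide 2 (1 against 2) 1 gene, in fits to those slides alone, where the lone pup of a group is assumed to vary like the other groups of its slide. Blood glucose as a linear term over the 7 arrays called 0 genes in limma's fit, with a smallest adjusted p of 0.197 and 3631 genes at an unadjusted p under 0.05.

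The 8 genes with the smallest p in each direction were of varied function, and none was called. Smad1, a transcription factor of bone morphogenetic protein signalling, had levels of −1.03, −1.04, −0.73 and −0.95 in the pups below 20 mg/dl, against −1.60, −1.65 and −1.86 in the pups at 20 mg/dl or more, a 1.71-fold ratio with a difference of 0.77 (SE 0.10, adjusted p = 0.0708). Tpsb2, a mast cell tryptase, read −0.01, −0.27, −0.22 and −0.07 in the pups below 20 mg/dl, against −0.99, −0.78 and −0.98 in the pups at 20 mg/dl or more, 1.71-fold with adjusted p = 0.0708. In both genes the 4 libraries below 20 mg/dl lay apart from the other 3 on the probe used, replicate 7 included, which choice by smallest p favours. Other probes gave 0.41 and 0.28 for Smad1 and 0.53 for Tpsb2. The groups overlapped on that Tpsb2 probe and on the Smad1 probe that gave 0.28. Cry2, a repressor of the circadian clock, differed by 0.99, Ifrd1, a stress-responsive transcriptional regulator, by 0.73, and Ablim1, an actin-binding protein, by 0.55 on the probe used and 0.01 and 0.21 on its other 2 probes, with adjusted p = 0.0947, 0.0971 and 0.0918. Cldn17, a claudin of tight junctions, and Muc5b, a mucin, differed by 1.16 and 1.14 (adjusted p = 0.0971 and 0.0971), both at levels far below the 75th percentile. Errfi1, an inhibitor of the epidermal growth factor receptor, completes the 8 with 0.79 and is described with the fasting genes.

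Among the 8 lower genes were 2 of splicing, a count without a background, since no list of splicing genes was examined. Lsm3, a ring protein of the spliceosome, read 1.71, 1.49, 1.41 and 1.55 in the pups below 20 mg/dl, against 2.05, 1.99 and 2.04 in the pups at 20 mg/dl or more. For Lsm3 the difference was −0.49 (SE 0.08, adjusted p = 0.0918). Sf3b6, a splicing factor that touches the branch point, read 3.07, 2.84, 2.92 and 2.93 in the pups below 20 mg/dl, against 3.42, 3.39 and 3.43 in the pups at 20 mg/dl or more. For Sf3b6 the difference was −0.47 (SE 0.08, adjusted p = 0.0918). The ranges of the 2 groups did not overlap in either, which choice by smallest p favours. Bak1, which opens the outer mitochondrial membrane in apoptosis, differed by −0.58 (adjusted p = 0.0918) with levels of 2.55, 2.26, 2.40 and 2.39 in the pups below 20 mg/dl, against 3.07, 2.84 and 3.04 in the pups at 20 mg/dl or more. Carnmt1, which makes anserine from carnosine, differed by −0.43, Cmc2, a mitochondrial protein, by −0.63, and the transcript Gm10814, well above background in 2 of the 4 pups below 20 mg/dl, by −0.98, with adjusted p = 0.0918, 0.0918 and 0.0708. Anapc15, a subunit of the anaphase-promoting complex, differed by −0.56 on the probe used (adjusted p = 0.0918) and by −0.24, −0.48, 0.03, −0.50 and −0.36 on its other 5 probes.

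**Figure D1:**
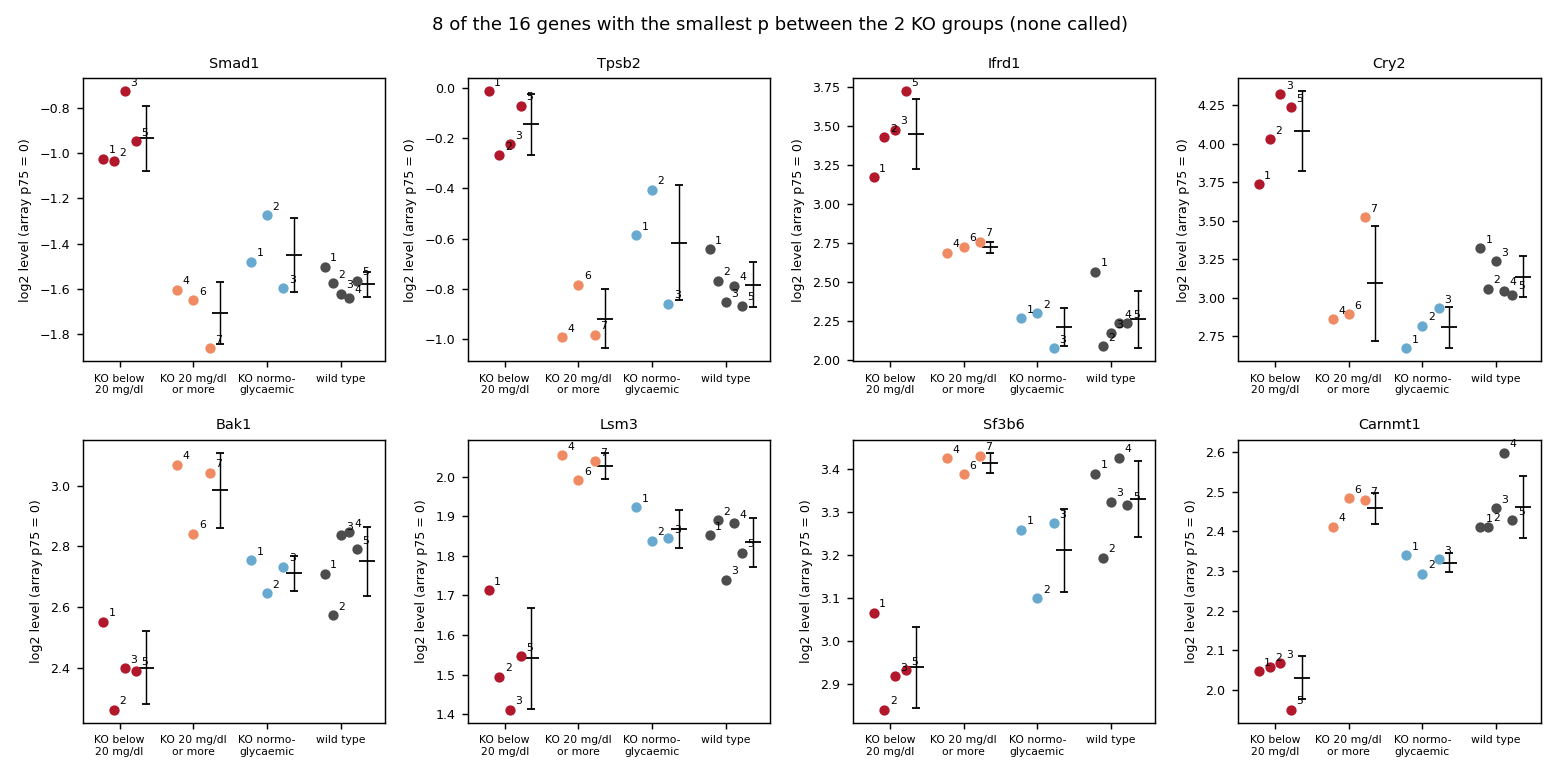
Log2 level on each array (vertical axis, 0 is the array's 75th percentile) of 4 genes higher and 4 genes lower in the KO pups below 20 mg/dl, among the 16 genes with the smallest p, none called. Points are pups, numbered by replicate, and bars are the mean and SD of each group. On the probes shown, the 4 pups below 20 mg/dl lie to one side of the 3 pups at 20 mg/dl or more in all 8 genes. The choice of genes by smallest p for this split favours that. For Lsm3 the highest of the 4 reads 1.71 and the lowest of the 3 reads 1.99.

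Genes that glucagon, cyclic AMP and glucocorticoids are known to induce in liver had the largest median difference among the lists other than those of markers. Of 31 measured members, 30 were above 0 and 1 below, none was called, and 11 lay above without overlap (background 7.31%), with a median difference of 0.75 where that over all genes was 0.01. The mean level of the list was 4.62, 4.63, 4.76 and 4.95 in the pups below 20 mg/dl, against 3.42, 3.64 and 4.66 in the pups at 20 mg/dl or more. Replicates 4 and 6 lay within the wild-type range of 2.99 to 3.81, while replicate 7 lay with the pups below 20 mg/dl, although its blood glucose of 29 mg/dl was between the 33 mg/dl of replicate 4 and the 26 mg/dl of replicate 6. In replicate 7, 18 members lay inside the range of the 4 pups below 20 mg/dl, against 0 of replicate 4 and 2 of replicate 6. For the fasting list the median difference was 1.07 within slide 1 and 0.72 within slide 2. It was 0.75 without replicate 2 of the pups below 20 mg/dl and 1.08 without replicate 7 of the others. Replicate 1, with acinar markers as low as in the 3 pups at 20 mg/dl or more, read 4.62, as high as replicate 2, at 4.63. Replicates 3 and 5, with Ddx3y at −7.07 and −5.15, read 4.76 and 4.95. Acinar RNA and Y-linked transcripts were both unevenly spread over the KO groups. Their part in this difference cannot be told apart from that of the glucose split.

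The plot of fasting-response genes shows single members. Ppargc1a, the coactivator PGC-1alpha, had levels of 3.59, 3.73, 4.07 and 3.80 in the pups below 20 mg/dl, against 1.49, 2.13 and 3.44 in the pups at 20 mg/dl or more, 2.72-fold, with a difference of 1.45 (SE 0.43, adjusted p = 0.141). Pim3, a kinase gene induced in the fasted liver, read 3.06, 3.20, 3.29 and 3.64 in the pups below 20 mg/dl, against 1.48, 1.87 and 3.02 in the pups at 20 mg/dl or more. For Pim3 the difference was 1.18 (SE 0.36, adjusted p = 0.145). Tsc22d3, the glucocorticoid-induced leucine zipper, read 3.77, 3.82, 3.85 and 3.78 in the pups below 20 mg/dl, against 2.26, 2.68 and 3.70 in the pups at 20 mg/dl or more. For Tsc22d3 the difference was 0.92 (SE 0.28, adjusted p = 0.141). In these 3 genes the groups did not overlap, and replicate 7 was the nearest of the upper pups to the lower ones. Klf9, a transcription factor induced by glucocorticoids, differed by 0.88, Klf15, a transcription factor of the fasted liver, by 1.02, Sik1, a kinase that is induced by and restrains cyclic AMP signalling, by 0.91, and Errfi1 by 0.79, each without overlap (adjusted p = 0.11, 0.124, 0.119 and 0.0918). Sgk1, a glucocorticoid-induced kinase, differed by 0.98, Cebpd, a transcription factor, by 0.75, and Fkbp5, a co-chaperone of the glucocorticoid receptor, by 0.50, and in each the range of the pups at 20 mg/dl or more reached into that of the pups below it through replicate 7 (adjusted p = 0.195, 0.261 and 0.262). Ddit4, an inhibitor of the growth regulator mTORC1, read 5.95, 5.71, 6.10 and 6.82 in the pups below 20 mg/dl, against 4.10, 4.29 and 6.31 in the pups at 20 mg/dl or more, so that replicate 7 lay inside the lower pups' range. For Ddit4 the difference was 1.24 (SE 0.47, adjusted p = 0.209). Per1, a clock gene that glucocorticoids induce, differed by 0.98 on the probe used (adjusted p = 0.163) and by −0.02 on a second probe.

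**Figure D2:**
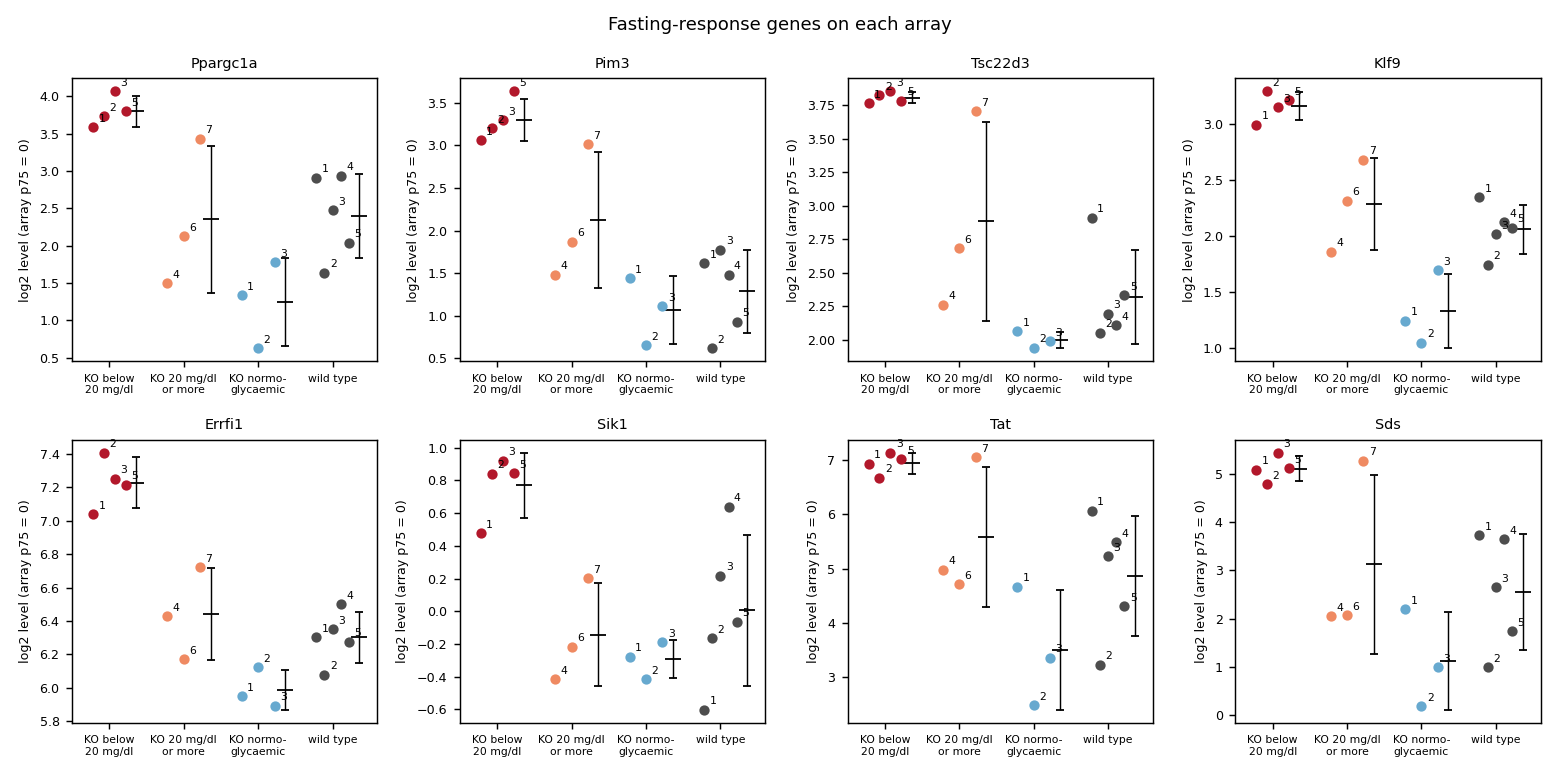
Log2 level on each array (vertical axis, 0 is the array's 75th percentile) of 8 genes of the fasted liver in the 4 groups, points numbered by replicate, bars the mean and SD. In Ppargc1a the 4 pups below 20 mg/dl read 3.59 to 4.07, replicate 7 of the pups at 20 mg/dl or more 3.44, and replicates 4 and 6 1.49 and 2.13.

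Without replicate 7, which leaves 4 pups against 2, the fit called 21 genes, among them Cry2, Klf15, Errfi1, Tsc22d3 and Trp53inp1, a p53-induced gene, on the higher side, with differences of 1.20, 1.44, 0.93, 1.33 and 2.31, and Gm10814 on the lower side, at −1.06. Their adjusted p in limma's fit ranged from 0.0296 to 0.0438. These 6 are the ones among the 21 that are named elsewhere in this text, and others differed by as much as 4.57. Replicate 7 lay with the lower pups in the fasting list. This fit thus leaves out the upper pup nearest to them and is no test of the split. Without replicate 4 or without replicate 6 instead, 0 genes were called. With all 7 libraries, Trp53inp1 read 4.45, 3.53, 3.96 and 4.71 in the pups below 20 mg/dl, against 1.63, 2.06 and 4.50 in the pups at 20 mg/dl or more, so that replicate 7 lay inside the range of the lower pups.

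Immediate-early genes, which answer hormones and stress within minutes, and clock genes were examined next. Of 25 measured immediate-early genes, 21 were above 0, with a median difference of 0.46. Only 1 did so without overlap (4%, under the background of 7.31%). The list mean was 0.14, 0.19, 0.32 and 1.04 in the pups below 20 mg/dl, against −0.20, −0.06 and 0.31 in the pups at 20 mg/dl or more. The highest library was replicate 5, and replicate 7 again lay within the lower pups' range. For the immediate-early list the median difference was 0.49 within slide 1 and 1.11 within slide 2. It was 0.55 without replicate 2 of the pups below 20 mg/dl and 0.53 without replicate 7 of the others. Ier2 was the member without overlap, with levels of −0.91, −0.83, −0.89 and −0.24 in the pups below 20 mg/dl, against −1.37, −1.37 and −1.39 in the pups at 20 mg/dl or more. For Ier2 the difference was 0.66 (SE 0.16, adjusted p = 0.11). Csrnp1, Btg2 and Junb, all rapidly induced genes, differed by 0.99, 1.34 and 0.96 (adjusted p = 0.13, 0.2 and 0.193). Fos, a part of the AP-1 factor, read −0.02, −1.43, −0.03 and 0.15 in the pups below 20 mg/dl, against −2.15, −2.17 and 0.15 in the pups at 20 mg/dl or more, where replicate 2 lay well below the other 3 pups of its group and replicate 7 was level with the highest of them (difference 1.06, adjusted p = 0.394, and 1.42 without replicate 2). The 19 measured clock genes had a median difference of 0.35, with 11 above and 8 below 0. Rora, an activator of the clock, differed by 0.58 without overlap on the probe used (adjusted p = 0.15), and Hlf, a clock output factor, by −0.63 (adjusted p = 0.143). A second Rora probe gave 0.38 with overlap. The hour at which livers were taken is not given in the sources used here.

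The enzymes of glucose production were centred near 0. The 14 measured genes of gluconeogenesis and glucose release split 7 to 7 around 0, with a median difference of 0.05 and 3 members higher without overlap (background 7.31%). G6pc, the glucose-6-phosphatase that releases glucose from the liver, read 7.88, 7.74, 7.93 and 8.07 in the pups below 20 mg/dl, against 7.11, 7.22 and 8.06 in the pups at 20 mg/dl or more. For G6pc the difference was 0.45 (SE 0.37, adjusted p = 0.58). Pck1, the committed enzyme of gluconeogenesis, read 7.79, 7.86, 8.08 and 7.90 in the pups below 20 mg/dl, against 7.20, 7.33 and 8.03 in the pups at 20 mg/dl or more. For Pck1 the difference was 0.39 (SE 0.28, adjusted p = 0.507). In both, replicates 4 and 6 were the lowest 2 of the 7 and replicate 7 lay within the range of the lower pups. Got1, the cytosolic aspartate aminotransferase, differed by 1.22 and Crtc2, a coactivator of cyclic AMP responses, by 0.42, both without overlap (adjusted p = 0.342 and 0.175). Gpd1, the glycerol-3-phosphate dehydrogenase that carries glycerol into this pathway, went the other way, at 3.96, 5.35, 4.11 and 3.49 in the pups below 20 mg/dl, against 6.19, 5.88 and 4.54 in the pups at 20 mg/dl or more, 2.48-fold lower in the pups below 20 mg/dl. For Gpd1 the difference was −1.31 (SE 0.42, adjusted p = 0.161). Replicate 2 of the pups below 20 mg/dl and replicate 7 of the others made the groups overlap in Gpd1, which differed by −1.69 without replicate 2. Igfbp1, an insulin-repressed secreted protein, and Foxo1, a transcription factor that insulin restrains, differed by 0.12 and 0.41 (adjusted p = 0.765 and 0.361), and the list of insulin signalling and FOXO targets by a median of 0.23 over 20 members.

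Glycogen and glycolysis genes were centred near 0, at medians of −0.01 over 16 and −0.09 over 17 members. Ppp1r3g, a glycogen-targeting subunit of protein phosphatase 1, read 4.95, 4.59, 5.07 and 5.26 in the pups below 20 mg/dl, against 2.21, 3.20 and 4.72 in the pups at 20 mg/dl or more. For Ppp1r3g the difference was 1.59 (SE 0.65, adjusted p = 0.241). Ppp1r3c, another such subunit, read −2.32, −1.78, −1.97 and −1.59 in the pups below 20 mg/dl, against −0.29, −1.20 and −1.95 in the pups at 20 mg/dl or more. For Ppp1r3c the difference was −0.77 (SE 0.37, adjusted p = 0.321). The signs of these 2 differences were opposite, and in each gene replicate 7 lay inside the range of the lower pups. Gbe1, the glycogen branching enzyme, was lower without overlap at −0.34 (adjusted p = 0.172), but its second probe gave 0.06, and Gys2 and Pygl, the liver's glycogen synthase and phosphorylase, differed by 0.12 and −0.08 (adjusted p = 0.832 and 0.836). Pklr, the liver pyruvate kinase, differed by −0.90 without overlap (adjusted p = 0.261).

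Of 36 measured genes of amino acid catabolism, 26 were above 0 and 6 without overlap (background 7.31%), with a median difference of 0.24. The list mean was 4.62, 4.69, 4.93 and 4.43 in the pups below 20 mg/dl, against 4.22, 4.05 and 4.75 in the pups at 20 mg/dl or more, so that replicate 7 lay inside the range of the lower pups and replicates 4 and 6 below it. The median was 0.32 within slide 1 and −0.11 within slide 2, on the other side of 0. Sds, the serine dehydratase of fasting, read 5.08, 4.79, 5.44 and 5.12 in the pups below 20 mg/dl, against 2.05, 2.07 and 5.27 in the pups at 20 mg/dl or more, 3.94-fold on average. For Sds the difference was 1.98 (SE 0.82, adjusted p = 0.252). Tat, the tyrosine aminotransferase induced by glucocorticoids, read 6.93, 6.67, 7.14 and 7.02 in the pups below 20 mg/dl, against 4.98, 4.71 and 7.06 in the pups at 20 mg/dl or more. For Tat the difference was 1.36 (SE 0.70, adjusted p = 0.353). In both genes replicates 4 and 6 lay far below all 5 other hypoglycaemic KO pups. Bckdha, a subunit of the branched-chain keto acid dehydrogenase, differed by 0.56 without overlap (adjusted p = 0.115), and Gls2, the liver glutaminase, by 0.57 without overlap (adjusted p = 0.236). In the urea cycle, 8 of 11 measured members were above 0, with a median of 0.29. That median was 0.47 and 0.07 within slides 1 and 2, 0.08 without replicate 6 and 0.58 without replicate 7. Arg1, the arginase, differed by 0.48 without overlap, Nags, which makes the activator of the cycle, by 0.67, and Cps1, its first enzyme, by 0.43 (adjusted p = 0.528, 0.235 and 0.727).

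**Figure D3:**
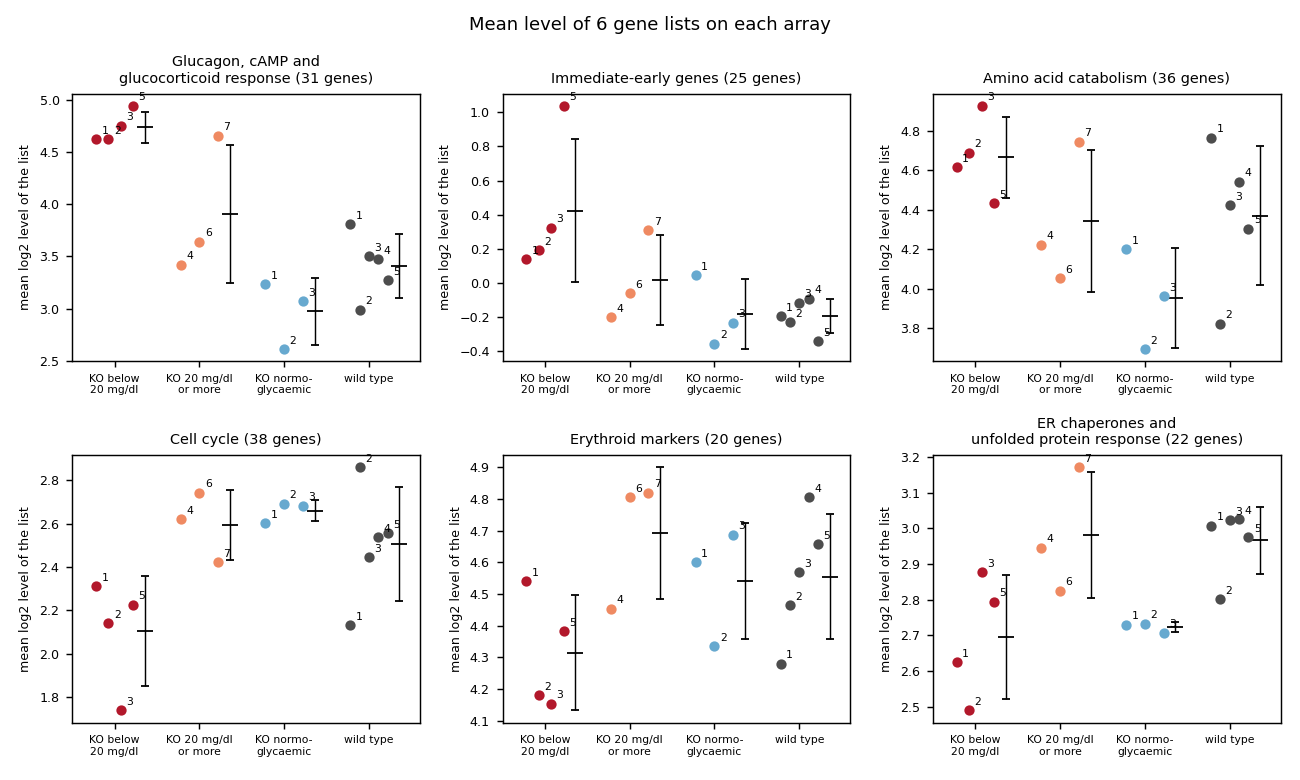
Mean log2 level over the measured members of 6 gene lists on each array (vertical axes differ between panels), points numbered by replicate, bars the mean and SD of each group. In the upper row replicate 7 of the KO pups at 20 mg/dl or more lies with the pups below 20 mg/dl, as at 4.66 against 3.42 and 3.64 for replicates 4 and 6 in the fasting list. In the cell cycle panel all 4 pups below 20 mg/dl lie under the other 3.

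Genes of fat metabolism had mostly negative differences. Of 30 measured genes of fatty acid oxidation and PPARA targets, 22 were below 0 and 4 without overlap (background 8.89%), with a median difference of −0.19. The list mean was 4.68, 4.87, 4.49 and 4.42 in the pups below 20 mg/dl, against 5.01, 5.09 and 4.53 in the pups at 20 mg/dl or more, so that replicate 7 lay inside the range of the lower pups. For the fat oxidation list the median difference was −0.21 within slide 1 and −0.32 within slide 2. It was −0.26 without replicate 2 of the pups below 20 mg/dl and −0.33 without replicate 7 of the others. Slc25a20, the carnitine carrier of the mitochondrion, read 2.27, 2.14, 2.16 and 2.01 in the pups below 20 mg/dl, against 2.74, 2.58 and 2.47 in the pups at 20 mg/dl or more. For Slc25a20 the difference was −0.45 (SE 0.11, adjusted p = 0.11). Acadl, the long-chain acyl-CoA dehydrogenase, differed by −0.31 without overlap, and Hadha, of the mitochondrial trifunctional protein, by −0.47 (adjusted p = 0.236 and 0.191). Cpt1a, the gate to mitochondrial oxidation, and Pdk4, a kinase that shuts off pyruvate use, differed by 0.13 and 0.14 (adjusted p = 0.808 and 0.9). In ketone body genes 7 of 9 members were below 0. Slc16a6, a ketone body exporter, differed by −0.57, and Sirt3, a mitochondrial deacetylase, by 0.34 (adjusted p = 0.187 and 0.151). Fgf21, a fasting hormone driven by PPARA, read −5.52, −2.85, −7.28 and −6.50 in the pups below 20 mg/dl, against −2.46, −2.69 and −5.28 in the pups at 20 mg/dl or more (difference −2.06, SE 0.96, adjusted p = 0.3), and was well above background in 2 of the 4 and in 2 of the 3 pups. Without replicate 2 the difference of Fgf21 was −2.96.

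Sterol and fatty acid synthesis had mostly negative differences too. Of 24 measured genes of cholesterol synthesis and uptake, 17 were below 0, with a median of −0.30, and of 18 lipogenic genes 13, with a median of −0.23. The cholesterol list mean was 1.34, 1.43, 1.14 and 1.28 in the pups below 20 mg/dl, against 1.88, 1.44 and 1.23 in the pups at 20 mg/dl or more, with replicate 7 inside the range of the lower pups. The cholesterol median was −0.59 and −0.12 within slides 1 and 2, −0.049 without replicate 4 and −0.48 without replicate 7. Sqle, the squalene epoxidase, read 1.73, 1.76, 1.35 and 1.61 in the pups below 20 mg/dl, against 3.41, 2.50 and 2.09 in the pups at 20 mg/dl or more. For Sqle the difference was −1.05 (SE 0.46, adjusted p = 0.27). Hmgcs1, which makes the precursor of mevalonate, differed by −0.93 without overlap and Tm7sf2, a sterol reductase, by −0.38, while Lss, the lanosterol synthase, was on the higher side at 0.79 without overlap (adjusted p = 0.261, 0.259 and 0.127). Acly, the ATP citrate lyase, and Me1, the malic enzyme, differed by −0.30 and −0.61 without overlap on the probes used (adjusted p = 0.234 and 0.267). A second Acly probe gave −0.03 with overlap. Srebf1 and Fasn, the master regulator and the synthase of fatty acid synthesis, differed by −0.22 and 0.00 (adjusted p = 0.782 and 0.996).

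Cell cycle genes all had negative differences. All 38 measured members were below 0, 24 of them without overlap (background 8.89%), and none was called, with a median difference of −0.44. The list mean was 2.31, 2.14, 1.74 and 2.23 in the pups below 20 mg/dl, against 2.62, 2.74 and 2.42 in the pups at 20 mg/dl or more, 2.60 to 2.69 in normoglycaemic KO pups and 2.13 to 2.86 in wild-type pups. The 4 pups lay below the 3, with replicate 3 the lowest of all 15, and wild-type replicate 1 lay within their range at 2.13. For the cell cycle list the median difference was −0.44 within slide 1 and −0.33 within slide 2. It was −0.45 without replicate 2 of the pups below 20 mg/dl and −0.51 without replicate 7 of the others. Rrm1, the large subunit of ribonucleotide reductase, read 3.11, 3.00, 2.60 and 3.04 in the pups below 20 mg/dl, against 3.77, 3.72 and 3.55 in the pups at 20 mg/dl or more. For Rrm1 the difference was −0.74 (SE 0.16, adjusted p = 0.11). Ccne1, the cyclin of S phase entry, read 2.66, 2.26, 2.19 and 2.24 in the pups below 20 mg/dl, against 3.59, 3.24 and 3.17 in the pups at 20 mg/dl or more, 2-fold lower (SE 0.23 on the log2 scale, adjusted p = 0.11). Mcm5, a subunit of the replicative helicase, and Pcna, the sliding clamp, differed by −0.83 and −0.60 without overlap (adjusted p = 0.114 and 0.111), while Mki67, a marker of dividing cells, differed by −0.33 with overlap (adjusted p = 0.291). In whole liver, fewer dividing cells and less of these RNAs per cell cannot be told apart, and the same holds for every other group of genes here.

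Markers of red cell precursors, which divide in the newborn liver, had mostly negative differences as well. Of 20 measured erythroid markers 18 were below 0 and 7 without overlap (background 8.89%), with a median of −0.45. The list mean was 4.54, 4.18, 4.15 and 4.38 in the pups below 20 mg/dl, against 4.45, 4.81 and 4.82 in the pups at 20 mg/dl or more. The means overlapped between replicate 1, below 20 mg/dl, and replicate 4, above it. Within slide 1 the median was −0.11 and within slide 2 −0.58, and it was −0.40 without replicate 2 and −0.36 without replicate 7. With the replicate number as a block it was 0.16, on the other side of 0, although the numbers were not taken to pair pups. Gata1, the master transcription factor of the lineage, read 3.61, 3.13, 3.21 and 3.34 in the pups below 20 mg/dl, against 3.89, 4.17 and 3.93 in the pups at 20 mg/dl or more. For Gata1 the difference was −0.68 (SE 0.15, adjusted p = 0.11). Tal1 and Klf1, transcription factors of the same lineage, and Ahsp, a chaperone of alpha-globin, differed by −0.65, −0.64 and −0.64 without overlap (adjusted p = 0.124, 0.148 and 0.119). The part of the red cell lineage in the cell cycle difference was not tested.

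Promoters of 2 members are shown because nearly all members of the fasting and cell cycle lists lay to one side, and these promoters hold motifs that cyclic AMP-responsive and E2F factors are known to bind. The 180 bases before the transcription start are given from RefSeq on GRCm38.p6, Errfi1 at chr4:150854890-150855069 and Mcm5 at chr8:75109329-75109508, both on the plus strand. Capitals mark the cyclic AMP response element TGACGTCA, which reads the same on both strands, and the E2F motif TTTNGCGC, searched on both strands. In Mcm5 the E2F motif was found once on each strand, with an overlap of 4 bases, and neither match overlaps the cyclic AMP response element:
Errfi1: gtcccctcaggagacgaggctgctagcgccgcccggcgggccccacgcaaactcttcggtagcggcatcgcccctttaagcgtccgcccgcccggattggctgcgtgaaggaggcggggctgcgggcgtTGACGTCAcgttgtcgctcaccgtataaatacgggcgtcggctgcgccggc
Mcm5: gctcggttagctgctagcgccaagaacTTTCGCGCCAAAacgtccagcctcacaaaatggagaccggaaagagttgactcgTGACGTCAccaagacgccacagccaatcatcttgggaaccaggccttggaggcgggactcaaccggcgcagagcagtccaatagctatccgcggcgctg
The element TGACGTCA occurred in 2 of 25 fasting-list genes with a listed promoter, Errfi1 and Dusp1, in 2 of 31 cell cycle genes, Mcm5 and Cenpe, and in 2.03% of all 27025 genes with a promoter, over windows of 300 bases. The E2F motif occurred in 0 of the 25, in 6 of the 31 and in 1.57% of all. Such matches describe the letters of these windows and show no binding.

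Genes of protein folding in the endoplasmic reticulum (ER) had mostly negative differences, with 18 of 22 measured members below 0 and a median of −0.31. Without overlap, 5 lay lower and 2 higher (background 8.89% and 7.31%). The list mean was 2.62, 2.49, 2.88 and 2.79 in the pups below 20 mg/dl, against 2.95, 2.83 and 3.17 in the pups at 20 mg/dl or more, so that the groups overlapped and replicate 7 was the highest of the 7. Creld2, an ER stress-induced secreted protein, read 3.70, 3.11, 3.88 and 3.96 in the pups below 20 mg/dl, against 4.33, 4.27 and 4.89 in the pups at 20 mg/dl or more. For Creld2 the difference was −0.83 (SE 0.20, adjusted p = 0.11). Sdf2l1 and Manf, partners of the ER chaperone BiP, differed by −0.78 and −0.73 without overlap, and Atf6, a sensor of the unfolded protein response, by 0.48 the other way (adjusted p = 0.141, 0.141 and 0.119). In the cytosol, 10 of 13 heat shock genes were below 0, with Hsp90aa1, the inducible HSP90, at −0.54, Dnajb1, an HSP40 co-chaperone, at −0.43, and Hsph1, an HSP110, at −0.57, each without overlap on the probe used (adjusted p = 0.11, 0.141 and 0.315). A second Hsph1 probe gave −0.60 with overlap. Subunits of oxidative phosphorylation had small differences, with 45 of 48 below 0 and a median of −0.12, and 5 were without overlap, which is near the background of 8.89%. Ndufa5 of complex I and Atp5e of ATP synthase differed by −0.32 and −0.18 (adjusted p = 0.215 and 0.235). Ribosomal protein genes had a median of −0.01 over 76 members. Targets of ATF4, the factor of amino acid stress, centred at −0.03 over 28 members, with Trib3, a pseudokinase, Chac1, which degrades glutathione, and Asns, the asparagine synthetase, at 0.46, 0.52 and 0.01 (adjusted p = 0.638, 0.56 and 0.982) and with Shmt2 and Aldh18a1, of serine and proline metabolism, at −0.41 and −0.53 without overlap (adjusted p = 0.161 and 0.161).

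Interferon and antigen presentation genes were below 0 in 31 of 32 measured members, with a median of −0.38, and 2 were without overlap (background 8.89%). The list mean was 0.63, 0.93, 0.80 and 1.05 in the pups below 20 mg/dl, against 1.48, 1.41 and 0.82 in the pups at 20 mg/dl or more, and replicate 7 lay within the range of the lower pups. For the interferon list the median difference was −0.66 within slide 1 and −0.07 within slide 2. It was −0.43 without replicate 2 of the pups below 20 mg/dl and −0.57 without replicate 7 of the others. Oas1a, an antiviral oligoadenylate synthetase, read 1.47, 2.11, 1.97 and 1.78 in the pups below 20 mg/dl, against 2.82, 2.67 and 1.94 in the pups at 20 mg/dl or more. For Oas1a the difference was −0.65 (SE 0.23, adjusted p = 0.195). Usp18, a brake on interferon signalling, differed by −0.73 without overlap, and Ifih1, an RNA sensor, and Oasl2, another antiviral gene, by −0.54 and −0.69 (adjusted p = 0.209, 0.208 and 0.199). Acute-phase genes had a median of −0.22, with 0.01 and −0.37 within slides 1 and 2 and −0.018 without replicate 7. Saa3, an acute-phase serum amyloid, read −1.56, −0.98, −0.45 and −0.11 in the pups below 20 mg/dl, against 0.88, 0.63 and 0.46 in the pups at 20 mg/dl or more (difference −1.43, SE 0.52, adjusted p = 0.193), and Saa1 differed by −0.64 without overlap (adjusted p = 0.167). Hamp, which encodes hepcidin, the iron-regulating hormone, was on the higher side, at 6.69, 6.66, 6.68 and 7.05 in the pups below 20 mg/dl, against 5.41, 4.63 and 5.70 in the pups at 20 mg/dl or more (difference 1.52, SE 0.60, adjusted p = 0.226), without overlap. Hepcidin and the serum amyloids, all acute-phase genes, therefore differed in opposite directions.

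Markers of the other cells of the liver mostly gave small or mixed differences, while those of stellate cells and fibroblasts were mostly positive. The medians were 0.14 for megakaryocytes, −0.06 for granulocytes, 0.14 for Kupffer cells and macrophages, −0.06 for B lineage cells, 0.26 for natural killer and T cells, 0.08 for endothelium, 0.32 for stellate cells and fibroblasts and −0.02 for bile ducts. For Kupffer cells and macrophages the median was −0.0042 without replicate 2. Fcgr1, a high-affinity antibody receptor of macrophages, read −1.27, −0.84, −1.23 and −1.22 in the pups below 20 mg/dl, against −0.19, −0.25 and −0.73 in the pups at 20 mg/dl or more. For Fcgr1 the difference was −0.75 (SE 0.18, adjusted p = 0.11), while 10 of 16 markers of Kupffer cells and macrophages were above 0 and 6 below. Of these 16, 1 was higher and 2 lower without overlap (background 7.31% and 8.89%). Endothelial genes differed both ways without overlap, with 4 of 20 markers higher and 1 lower (background 7.31% and 8.89%). Emcn, a sialomucin, and Bmp2, which induces hepcidin in hepatocytes, were at 0.59 and 0.51 and Gpr182, a receptor of sinusoidal endothelium, at −0.24 (adjusted p = 0.141, 0.151 and 0.156). Pdgfra, a receptor of fibroblasts, and Retnlg, a neutrophil protein, differed by 0.67 and 0.99 without overlap (adjusted p = 0.164 and 0.148). Of 18 stellate cell and fibroblast markers 14 were above 0, and of 23 granulocyte markers 9 were above 0 and 14 below. Of the granulocyte markers 1 was higher and 1 lower without overlap, and of the 17 stellate cell and fibroblast markers with a value on all 7 arrays 1 was higher (background 7.31% and 8.89%). Markers of intestine and stomach, fat and skeletal muscle, which a liver sample could carry from outside, had medians of −0.03, −0.12 and −0.14.

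Genes that define the hepatocyte had list medians near 0. The secreted and identity genes had a median of −0.03, yet 4 of 21 were lower without overlap (background 8.89%) and none higher. The hepatocyte transcription factors had one of −0.01, yet 4 of 21 were higher without overlap (background 7.31%) and none lower. Hnf4a, the central factor of hepatocyte identity, read 6.77, 6.76, 7.09 and 6.81 in the pups below 20 mg/dl, against 6.14, 6.27 and 6.67 in the pups at 20 mg/dl or more. For Hnf4a the difference was 0.50 (SE 0.14, adjusted p = 0.123). Gata6 and Zbtb20, a repressor that silences alpha-fetoprotein, differed by 0.69 and 0.56 (adjusted p = 0.123 and 0.117). Alb, albumin, differed by −0.13 and Ttr, transthyretin, by −0.66, both without overlap (adjusted p = 0.52 and 0.199). Among 48 drug-metabolising enzymes 6 were higher without overlap (12.8%, background 7.31%), and the list median of 0.18 turned to −0.05 without replicate 2 and to −0.12 without replicate 7. Cyp3a11, a major drug-inducible cytochrome, read 7.83, 7.33, 7.62 and 7.25 in the pups below 20 mg/dl, against 6.83, 6.72 and 6.98 in the pups at 20 mg/dl or more. For Cyp3a11 the difference was 0.66 (SE 0.20, adjusted p = 0.148). Cyp2b10, the target of the receptor CAR, read 4.02, 3.60, 4.35 and 2.83 in the pups below 20 mg/dl, against 2.24, 2.62 and 2.30 in the pups at 20 mg/dl or more. For Cyp2b10 the difference was 1.31 (SE 0.43, adjusted p = 0.163). Cyp3a16 and Cyp2d9 differed by 0.52 and 0.90 without overlap (adjusted p = 0.134 and 0.175), and close relatives in these families may share probe signal. In the growth hormone and IGF axis the median was 0.04, with Igfbp3, a carrier of IGF, and Igf1r, its receptor, higher without overlap on the probes used at 0.70 and 0.38 (adjusted p = 0.163 and 0.252) and Igf1 at −0.16 (adjusted p = 0.881). A second Igfbp3 probe gave 0.25 with overlap. Autophagy genes went both ways without overlap, Map1lc3a, an autophagosome protein, at 0.38 and Atg5, which helps to lipidate it, at −0.52, and Ulk1, the starting kinase, differed by 0.39 (adjusted p = 0.122, 0.11 and 0.233). Bax, a partner of Bak1 in apoptosis, differed by −0.49 without overlap (adjusted p = 0.118).

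Against wild-type livers the 2 KO groups gave very different counts of called genes, in comparisons that share the 5 wild-type arrays. The KO pups below 20 mg/dl had 1162 genes called higher (4.24%) and 1407 lower (5.13%), and the KO pups at 20 mg/dl or more had 0 called in either direction (0%) in limma's fit, with 1142 higher and 1249 lower at an unadjusted p under 0.05. The unequal counts come with 4 and 3 pups, and do not show that the effects differ, since the direct comparison of these groups called no gene. The count below 20 mg/dl also rested on single libraries: it was 25 without replicate 5, 443 without replicate 1, 1690 without replicate 3, and 4622, 933, 629, 695 and 502 without wild-type replicates 1 to 5 in turn. It was 2 without the 3 libraries highest in acinar markers, which are replicate 3 of these pups, replicate 2 of the normoglycaemic KO pups and replicate 2 of the wild-type pups, and 0 and 3 within slides 1 and 2. For the pups at 20 mg/dl or more, the count was 17, all lower, in the fit without replicate 2 of the pups below 20 mg/dl.

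Called genes of the pups below 20 mg/dl included most of the fasting list, of which 21 of 31 rose and 0 fell against wild type (background 4.24% and 5.13%). Pim3 rose by 2.02 (adjusted p = 0.0139), against 0.84 (adjusted p = 0.541) in the pups at 20 mg/dl or more. Ddit4 rose by 3.11 (adjusted p = 0.0114), against 1.87 (adjusted p = 0.444). Ppargc1a rose by 1.40 (adjusted p = 0.0399), against −0.05 (adjusted p = 0.978), so that its mean in the pups at 20 mg/dl or more was near the wild-type mean. Replicates 4 and 6 read below the wild-type mean and replicate 7 above it. Of the other lists, 15 had 4 or more called members in a direction. Those that rose were 11 of 25 immediate-early genes, 6 of 20 genes of insulin signalling and FOXO targets, 6 of 18 of autophagy and lysosome, 5 of 28 of the integrated stress response, 4 of 19 clock genes and 4 of 14 p53 targets. Those that fell were 9 of 22 ER folding genes, 8 of 38 cell cycle genes, 8 of 48 drug-metabolising enzymes, 7 of 32 interferon genes, 6 of 21 of the growth hormone and IGF axis, 6 of 19 markers of natural killer and T cells, 5 of 34 of coagulation and complement, 4 of 15 pericentral genes and 4 of 20 erythroid markers. In these lists, 2 ER folding genes rose, and each of the insulin, autophagy, clock and p53 lists had 1 member that fell and each of the drug, growth hormone and coagulation lists 1 that rose.

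Other genes lay on the same side of wild type in both KO groups. Tbx3, a transcription factor of the liver bud, fell by 1.24 in the pups below 20 mg/dl (adjusted p = 0.00529), and its difference was −0.89 in the pups at 20 mg/dl or more (adjusted p = 0.202), with levels of 0.23, 0.26, 0.56 and 0.17 in the pups below 20 mg/dl, against 0.93, 0.55 and 0.47 in the pups at 20 mg/dl or more. Gzmb, the granzyme B of cytotoxic cells, gave −1.12 and −1.12 against wild type (adjusted p = 0.0139 and 0.202) and 0.00 between these KO groups. Pdk4 gave 1.39 and 1.25 (adjusted p = 0.034 and 0.483). Igf1 gave −1.41 and −1.25 (adjusted p = 0.0302 and 0.483), with levels of −0.05, 1.43, −0.04 and −0.21 in the pups below 20 mg/dl, against 0.39, 0.84 and 0.11 in the pups at 20 mg/dl or more, where replicate 2 stood above the rest. Between the KO groups Igf1 differed by −0.16 with replicate 2 and by −0.54 without it. Cyp1a2, a pericentral cytochrome, gave −3.57 and −2.56 (adjusted p = 0.0167 and 0.482), and Akr1c6, a steroid dehydrogenase, −2.88 and −4.51 (adjusted p = 0.103 and 0.479). Between the KO groups, Cyp1a2 differed by −1.01 and Akr1c6 by 1.63 (adjusted p = 0.536 and 0.529). Trib3 and Chac1 gave 1.67 and 1.78 below 20 mg/dl (adjusted p = 0.0273 and 0.0204) and 1.20 and 1.26 at 20 mg/dl or more (adjusted p = 0.491 and 0.483). In these genes the 2 differences from wild type stand side by side, and they share its arrays.

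Within the 7 KO pups the levels did not follow blood glucose step by step. The fasting list read lowest in replicate 4 (33 mg/dl) and replicate 6 (26 mg/dl) and high in replicate 7 (29 mg/dl), and among the pups below 20 mg/dl it read 4.62 at 9 mg/dl and 4.63 at 16 mg/dl. The cell cycle list read 2.42 in replicate 7, the lowest of its group, and 1.74 to 2.31 in the pups below 20 mg/dl. The pups form 2 separate clusters of glucose with fewer than 6 in each, so no correlation of list levels with glucose is given. The linear fit of blood glucose described above, which called 0 genes, spans the same 2 clusters and has the same limit.

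**Figure D4:**
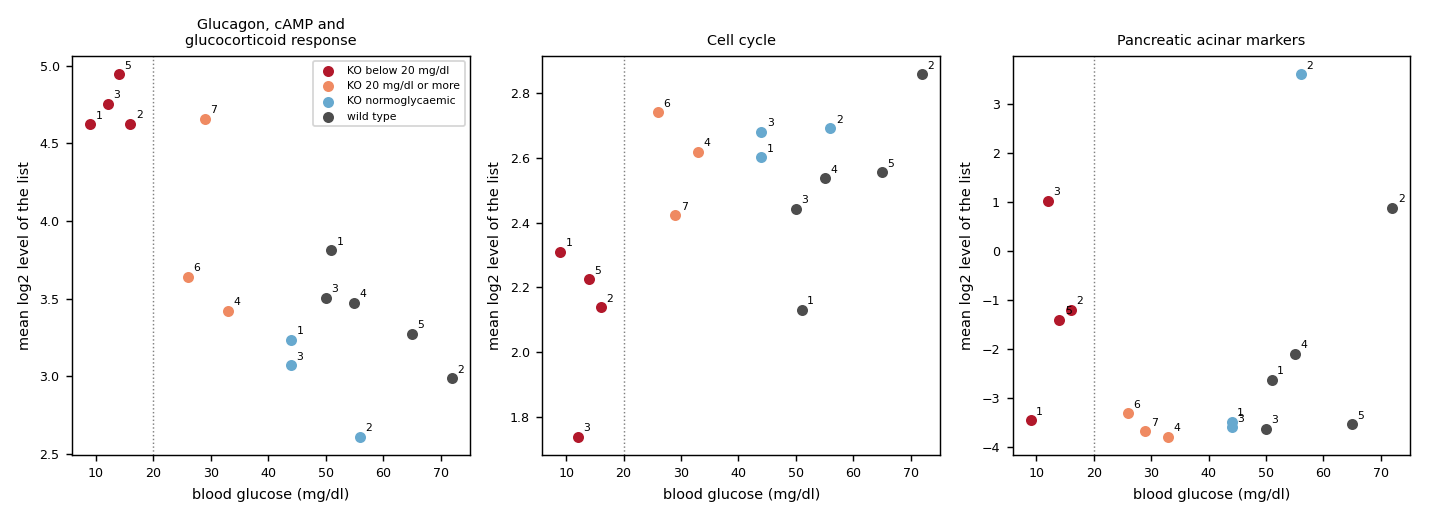
Blood glucose of each pup (horizontal axis, mg/dl) against the mean log2 level of 3 gene lists (vertical axis), coloured by group and numbered by replicate, with a dotted line at 20 mg/dl. Replicate 7 of the KO pups at 20 mg/dl or more lies at 4.66 for the fasting list, beside the pups below 20 mg/dl, and pancreatic acinar markers are low in all 3 pups of its group.

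Across the 49 lists, none had a called member, and 23 had a median above 0 and 26 below. The plot of list medians shows how far each depended on single libraries. Those of the fasting list, of cell cycle, fat oxidation, cholesterol synthesis, lipogenesis, interferon, ER folding, heat shock and oxidative phosphorylation genes kept their sign without replicate 2, without replicate 7 and within either slide, and those of drug-metabolising enzymes, amino acid catabolism and acute-phase genes did not.

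**Figure D5:**
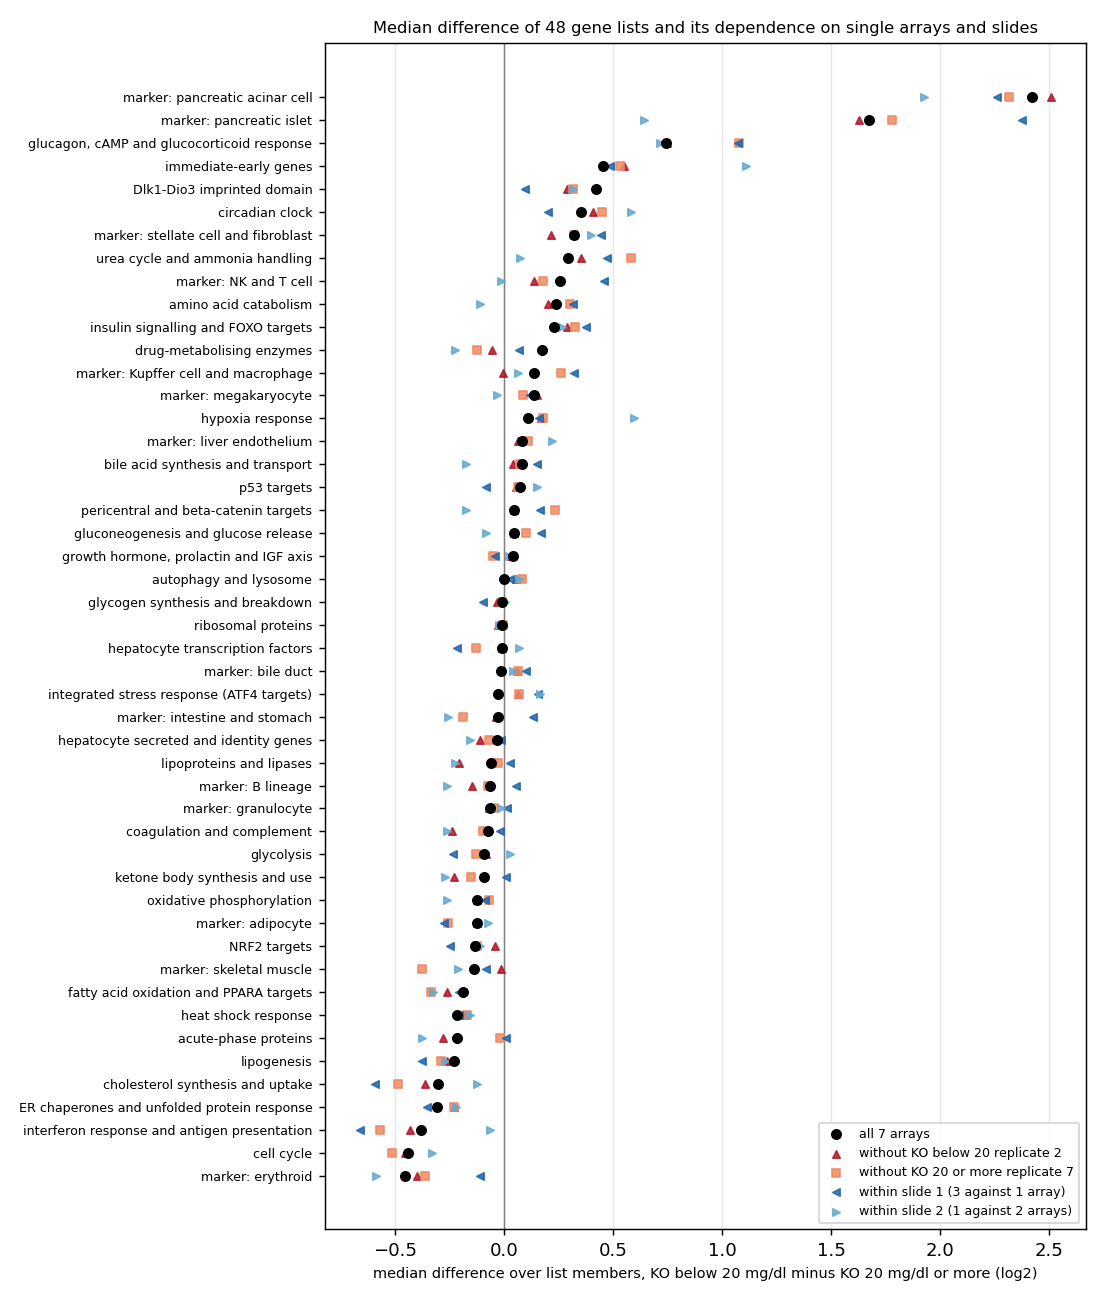
Median over the members of each of 48 gene lists of the log2 difference between KO pups below 20 mg/dl and KO pups at 20 mg/dl or more (horizontal axis), for all 7 pups (black), without replicate 2 or 7, and within each slide; the Y-linked list is left out. The fasting list lies between 0.72 and 1.08, and the cell cycle list between −0.51 and −0.33.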

How the data were processed

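Liver RNA of 15 pups was labelled with Cy3 and hybridised to Agilent single-colour arrays, and each sample is a separate pup. Spot intensity is the processed signal in the deposited scanner files, written by Agilent Feature Extraction 10.10 per the submitters' processing notes, with the background subtracted per the file headers. The log2 values of the authors' deposited table, whose normalization is not given in the sources used here, served as an alternative only. Here control spots and outlier spots (176 to 546 an array) were left out, no spot was saturated, and log2 signal was centred on each array's 75th percentile (663 to 912 signal units). Repeated spots were averaged, 40915 of 55681 probes well above background on 3 or more arrays were kept, and each gene was represented by 1 probe, giving 27415 genes, 18255 of them with a current symbol. Names came from accessions for 27306 probes and from the files for 24288. No counts underlie these values, and the number of arrays limits the precision.

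limma 3.58.1 in R 4.3.3 fitted 4 group means over all 15 arrays (11 residual degrees of freedom). P-values were Benjamini-Hochberg adjusted over all genes, and called means an adjusted p under 0.05. A single value was tested by an exact permutation test. The script was tested on simulated data. Figures and summaries used Python 3.11.15, numpy 2.4.6, pandas 2.3.3 and matplotlib 3.10.9. Promoters and microRNAs were matched by symbol to RefSeq tables (25 of 31 fasting-list and 31 of 40 cell cycle genes).

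The named genes were called genes or, where fewer than 6 were called in a direction, the 8 with the smallest p in it, a fixed set of 37 genes, and up to 4 members of each list with the smallest p, of which a few are not reported here. The split, the 49 gene lists and these rules were chosen with earlier results of these data known. Alternatives changed the background correction, normalization, probe filter, slide, replicate block, array weights and the arrays included, and the closing section gives their effect. Same-numbered samples of different groups deviated together only in part (r between −0.13 and 0.316 over 11 pairs, 6 of them over 0.1), so numbers were not taken to pair pups.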

Additional observations from a re-analysis of the deposited data

Results flagged for a closer look

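Of 296 sets of 4 or 5 pups tested for a single outlying array (133 genes and 15 list means in the KO pups below 20 mg/dl and in the wild-type pups), 29 (9.8%) had one, where chance gives about 5%. Among the KO pups below 20 mg/dl, replicate 5 stood apart in 8 genes. It was high for Bnip3, a mitophagy gene of hypoxia, at 7.02 where the others read 6.00 to 6.05, for Btg2 at 4.29 (others 2.70 to 2.90), for Gata6 at 2.05 (others 1.38 to 1.44), for Hamp at 7.05 (others 6.66 to 6.69), for Ier2 at −0.24 (others −0.91 to −0.83) and for Meg3 at 5.36 (others 4.85 to 4.93). It was low for Carnmt1 at 1.95 (others 2.05 to 2.07) and for Cmc2 at 1.32 (others 1.60 to 1.64). Replicate 2, whose Mirg level goes against its label, stood apart in Igf1 at 1.43 (others −0.21 to −0.04), Fos at −1.43 (others −0.03 to 0.15) and Fcgr1 at −0.84 (others −1.27 to −1.22). Replicate 3 was high for Hnf4a at 7.09 (others 6.76 to 6.81) and Klf15 at 3.16 (others 2.75 to 2.80), and replicate 1 for Ccne1 at 2.66 (others 2.19 to 2.25).

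Among the wild-type pups, replicate 1 was high for Hamp at 6.73 (others 3.90 to 4.71) and Pdgfra at 0.55, and low for Anapc15 at 2.44, Hsp90aa1 at 4.69 and Hsph1 at 0.98. Replicate 2, one of the arrays with pancreatic acinar RNA, was high for Fasn at −1.77 and Pklr at −0.83, low for G6pc at 6.03 and Per1 at 2.84, and low in the mean of the ER folding list at 2.80 and of the oxidative phosphorylation list at 5.94. Replicate 3 read 2.00 for Ddx3y, a Y-linked gene (others −7.10 to −6.01). Replicate 4 was high for Carnmt1 at 2.60 and low for Fcgr1 at −0.57, and replicate 5 was high in the mean of the fatty acid oxidation list at 5.15 (others 4.70 to 4.79). For Hamp, wild-type replicate 1 lay within the range of the KO pups below 20 mg/dl.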

How the results depend on the processing

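For the KO pups below 20 mg/dl against those at 20 mg/dl or more, 0 genes were called in limma's fit, against 38 (12 higher, 26 lower) over the 20586 genes with probes above background on all 15 arrays, where fewer genes are tested, and 981 (384 higher, 597 lower) with array weights. The count was 2 with the authors' deposited log2 values, 1 with the 7 arrays alone, 2 and 1 within slides 1 and 2, 3 with the slide row as a block, 1 with a Y-linked transcript as a covariate, and 25 without replicates 2 and 7 together, an alternative chosen after seeing the data. Leaving out 1 array at a time gave 0 to 409. Against wild type, the 2569 genes called in the pups below 20 mg/dl became 1333 with no filter on dim probes, 0 and 3 within slides 1 and 2, 4558 with array weights, 2 without the 3 arrays highest in acinar markers, 519 without these and replicate 2, and 25 to 4622 without 1 array at a time. The 0 called in the pups at 20 mg/dl or more became 3 with array weights, 9 without the 3 acinar arrays and replicate 2, 4 without replicates 2 and 7, and 0 to 17 without 1 array at a time. With the replicate block, 658 genes were called below 20 mg/dl and 1 at 20 mg/dl or more against wild type, and no gene between the KO groups, which share no number. The difference of Mirg between the KO groups, 0.85, was 1.93 and −0.60 within slides 1 and 2, 1.76 with the replicate block, −0.044 without the acinar arrays and replicate 2, and 0.15 to 1.39 without 1 array at a time. The cause of these changes was not tested, also where an alternative tests fewer genes or arrays. Of 132 other genes named, 51 passed with array weights, 30 without wild-type replicate 1, 13 with probes above background on all arrays and 6 without replicate 7. The sign turned in 4 within slide 1, in 3 within slide 2 and in 5 with the replicate block. The difference moved by the gene's fitted SD or more in 27, 30 and 70 of them. Of the 49 lists, the median turned sign in 10 within slide 1, in 12 within slide 2 and in 9 with the replicate block, where the erythroid list had a median of 0.16. Centring on the median changed none of the 132.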

Other observations

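Hypoxia-response genes had a median difference of 0.11 between the KO groups, with 13 of 19 above 0, which was −0.12 with 6 above 0 without replicate 5 of the pups below 20 mg/dl, and replicate 5, at 14 mg/dl, had a list mean of 2.22, where replicates 1, 2 and 3 read 1.33, 1.12 and 1.13 and the KO pups at 20 mg/dl or more read 1.11, 1.40 and 1.41. Scg2, a granin of hormone-secreting cells, read −2.17, −4.76, −3.82 and −5.32 in the KO pups below 20 mg/dl, against −7.56, −7.24 and −6.92 in the KO pups at 20 mg/dl or more, where it was not well above background on any array, so that it was at least 2.72-fold higher below 20 mg/dl, set against the lowest signal well above background on each array (adjusted p = 0.111 in limma's fit). In the fit to the 7 arrays alone the 1 called gene was Mmrn1, a platelet and endothelial protein, with a difference of 1.58 (adjusted p = 0.0205), named here after its value was seen. Markers of natural killer and T cells had a median difference from wild type of −0.53 in the KO pups below 20 mg/dl, with 6 of 19 called lower (background 5.13%), and of −1.12 in the KO pups at 20 mg/dl or more, with 0 called (background 0%), in comparisons that share the wild-type arrays.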
